A study of Equus caballus with 32 samples.

Results

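The libraries described here are the paired tracheal wash samples of 4 racehorses, horses 4, 9, 11 and 16. In race training, cytology of their wash showed no sign of bleeding into the airway and no high share of neutrophils. These horses were the members because at T1 they were classed as unaffected by exercise-induced pulmonary haemorrhage (EIPH) and not as High_N. The study called a horse EIPH-affected when its wash held haemosiderophages, macrophages loaded with iron from red blood cells, and High_N when neutrophils in the wash passed its cytological limit. The set holds 8 of the 32 libraries of the series, 4 from T1 and 4 from T0. The T1 wash was taken after about 2.5 months of race training, when the horses were stabled and had raced, and the T0 wash of the same horse after about 2 months of rest, largely at pasture. All horses were adult male Thoroughbreds of a single yard and trainer, and no library was made from pooled animals. No horse stayed at rest over the same period, so training, housing and season cannot be told apart. EIPH and High_N status was taken from the study's text, which proposes that horses classed as unaffected may also have bled.

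Tracheal wash collects the cells that lie on the lining of the windpipe. In healthy horses most are alveolar macrophages carried up from the lung on the mucociliary escalator, mixed with lymphocytes, some neutrophils and shed epithelial cells. Macrophages clear inhaled dust and microbes and set the level of inflammation through cytokines, antigen presentation and lipid mediators. Strenuous exercise and stabling both expose these cells to more inhaled particles, and training is known to alter innate responses of equine airway cells. RNA was sequenced in bulk, so fewer cells of a type and less RNA per cell cannot be told apart in any value below. Values are on the log2 scale of the deposited table, where a difference of 1 is a doubling.

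Macrophage markers were the most abundant of the cell type lists, with list means of 13.14, 13.42, 13.87 and 13.20 at T1 in horses 4, 9, 11 and 16, against 13.75, 13.57, 14.07 and 12.89 at T0. Among them CD163, the haemoglobin scavenger receptor, C1QC, a chain of complement C1q, and MRC1, the mannose receptor, averaged 17.25, 16.93 and 15.27 over the 8 libraries. Neutrophil markers had list means of 9.85, 8.93, 9.28 and 9.80 at T1, against 9.04, 9.21, 8.34 and 8.56 at T0. In the 3 High_N horses, a class set by wash neutrophils, the same markers reached 9.98 to 10.97 at T1, above every one of the 4 horses. In the 9 EIPH-affected horses that were not High_N they were at 8.56 to 10.12. HMOX1, the enzyme that opens the heme ring and a marker of macrophages that have taken up red cells, was at 15.57, 15.31, 16.47 and 15.89 at T1, against 15.62, 15.55, 16.03 and 14.76 at T0. It was higher at T1 in 2 of the 4 horses and in 11 of the other 12, with mean differences of 0.32 and 0.94. The other 12 were not all EIPH-affected, since horse 10 was unaffected and High_N. The HMOX1 difference between the 4 and the 12 was −0.61 on the log2 scale (limma 95% interval −1.64 to 0.41, adjusted p = 0.9999).

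**Figure D1:**
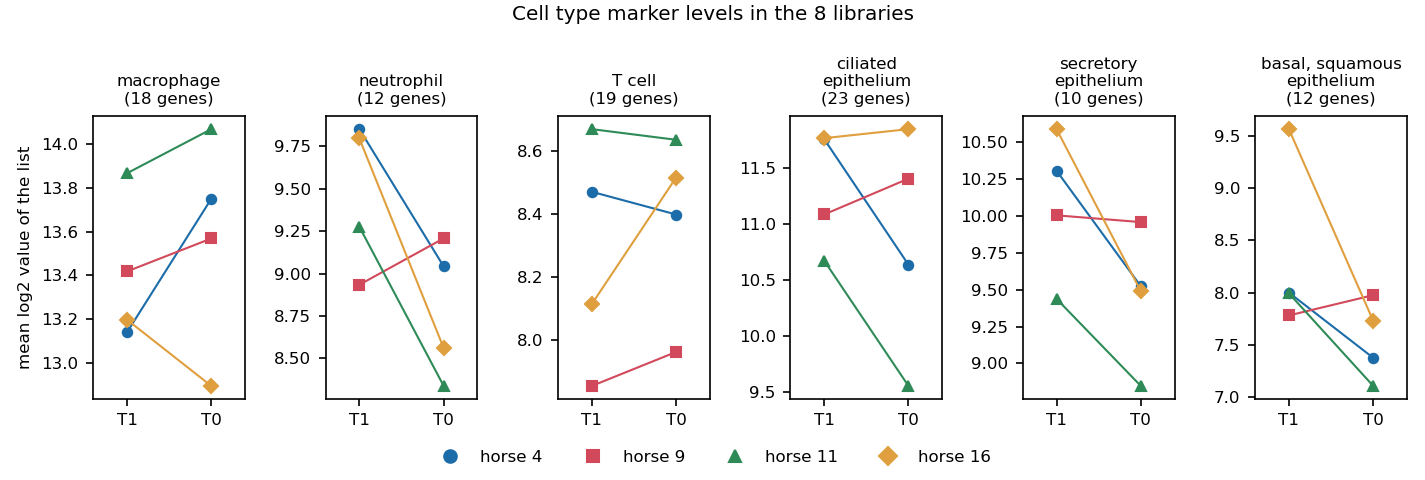
Mean log2 value of 6 cell type marker lists (vertical axes, each with its own range) at T1 and T0 (horizontal axis) in the 4 horses, with a line joining the libraries of a horse. Neutrophil and basal or squamous epithelial markers were higher at T1 in horses 4, 11 and 16 and lower in horse 9.

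Epithelial and neutrophil markers showed the larger differences between times, and not the same ones in each horse. Ciliated cell markers, mostly genes of the motile axoneme, differed by 1.12, −0.32, 1.12 and −0.08 in horses 4, 9, 11 and 16. Basal and squamous epithelial markers differed by 0.62, −0.19, 0.89 and 1.83 in horses 4, 9, 11 and 16, and neutrophil markers by 0.81, −0.27, 0.94 and 1.24. The T cell list differed by no more than 0.40 in any horse, and was at 8.47, 7.86, 8.67 and 8.11 at T1 against 8.40, 7.96, 8.63 and 8.51 at T0. Horse 9 therefore stood apart from horses 4, 11 and 16 in neutrophil and squamous markers, and horses 4 and 11 stood apart from horses 9 and 16 in ciliated markers. The part of these markers in the results that follow was not tested except where a fit with marker covariates is named.

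No gene passed the test between T1 and T0 in the 4 horses. Of 14752 genes tested with limma, with the horse as a block, 0% had a Benjamini-Hochberg adjusted p below 0.05, and the smallest adjusted p was 0.464. At an unadjusted p below 0.05 limma gave 1110 genes, 7.52% of those tested. A fit to all 32 libraries, which estimates the spread from all 16 horses, also gave 0 genes for the 4 horses, with 526 at an unadjusted p below 0.05. The genes below are therefore described by their values and by how many horses shared a direction. An exact sign-flip test of 4 pairs cannot reach 0.05, since the smallest two-sided p it allows is 1 in 8.

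By direction alone, 1133 genes were higher at T1 in 4 of 4 horses, 7.68% of those tested, and 911 were lower in 4 of 4, or 6.18%. With each library shifted to a common median these counts were 1279 and 610. The gaps between the library medians that this shift removed, T1 minus T0, were 0.18, −0.07, 0.07 and −0.11 in horses 4, 9, 11 and 16. Genes higher at T1 in every horse and by at least 1.5-fold on average numbered 249, or 1.69%, against 168 lower, or 1.14%. The 4 T1 libraries lay all above the 4 T0 libraries for 125 genes, 0.847% of those tested, and all below for 99 genes, 0.671%. After the shift to a common median 105 genes lay all above and 53 all below. With a horse left out, a shared direction was asked of the remaining horses only, which is easier to meet. Genes higher by at least 1.5-fold then numbered 184, 1496, 224 and 735 without horse 4, 9, 11 and 16. Those lower numbered 160, 937, 163 and 505. Among the remaining libraries, those of T1 lay all above T0 for 228, 841, 418 and 746 genes without horse 4, 9, 11 and 16. They lay all below for 221, 976, 204 and 1188 genes. These counts were highest without horse 9 or 16, and cannot be set directly against those of all 4 horses.

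The gene with the smallest p among those higher at T1 was IL1R2, the decoy receptor that binds interleukin 1 without signalling. IL1R2 was at 8.75, 8.98, 7.79 and 9.45 at T1 in horses 4, 9, 11 and 16, against 6.34, 7.66, 6.13 and 7.77 at T0. Every T1 library lay above every T0 library, the nearest being T1 of horse 11 and T0 of horse 16. The mean difference was 1.77 ± 0.24 (limma SE, n = 4 pairs), with a limma 95% interval of 1.23 to 2.31 and an adjusted p of 0.464. This SE, like those of the named genes below, draws on the spread of all genes tested. It is not the spread of the 4 horses alone, which can be smaller or larger. CCL2, the chemokine that recruits monocytes, was also higher without overlap. Its values were 11.74, 10.52, 10.33 and 10.09 at T1, against 10.01, 9.57, 8.72 and 9.60 at T0. CCL2 differed by 1.20 ± 0.23 (interval 0.66 to 1.73, adjusted p = 0.618), and horse 16 had the smallest difference.

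Epithelial defence and keratin genes made up most of the other genes named as higher, for which a shared direction was part of the rule. In the basal and squamous marker list, 1 of 12 genes was higher at T1 in 4 of 4 horses, or 8.33% against 7.68% of all genes. DEFB1, an antimicrobial beta-defensin of epithelia, was at 9.85, 9.78, 8.89 and 9.78 at T1, against 8.37, 9.09, 8.08 and 8.14 at T0. Only T1 of horse 11 overlapped the T0 values, and the mean difference was 1.15 ± 0.22. KRT13, a keratin of non-cornified stratified epithelium, was at 12.93, 12.68, 13.24 and 15.59 at T1, against 11.32, 12.41, 12.16 and 13.51 at T0. Horse 16 was the highest at both times, and horse 9 had the smallest KRT13 difference, 0.27. KRT6C and KRT75, keratins of stressed or stratified epithelium, differed by 1.22 ± 0.26 and 1.27 ± 0.28, and A2ML1, a protease inhibitor of stratified epithelium, by 1.04 ± 0.23. Reads of keratin genes that resemble each other may have been divided between them in quantification, so single keratin values are uncertain.

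The remaining genes named as higher were ADIRF, ARSF and UCHL1. ADIRF, a small factor linked to fat cell differentiation, was at 10.37, 10.25, 11.08 and 12.11 at T1, against 9.20, 9.58, 9.18 and 10.45 at T0, a difference of 1.35 ± 0.22. Horse 9 had the smallest difference of the 4. ARSF, an arylsulfatase, and UCHL1, a ubiquitin hydrolase, differed by 1.23 ± 0.26 and 1.14 ± 0.24. When the neutrophil, T cell and ciliated list means were added as covariates to the fit of all 32 libraries, ADIRF, ARSF, KRT6C, KRT13 and A2ML1 turned to −0.20, −0.09, −0.24, −0.15 and −0.07. In that fit IL1R2 was at 0.82, DEFB1 at 0.27 and CCL2 at 1.21, and KRT75 was at 0.13 and UCHL1 at 0.46. All 10 genes had an adjusted p of 0.464 or 0.618 between T1 and T0.

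**Figure D2:**
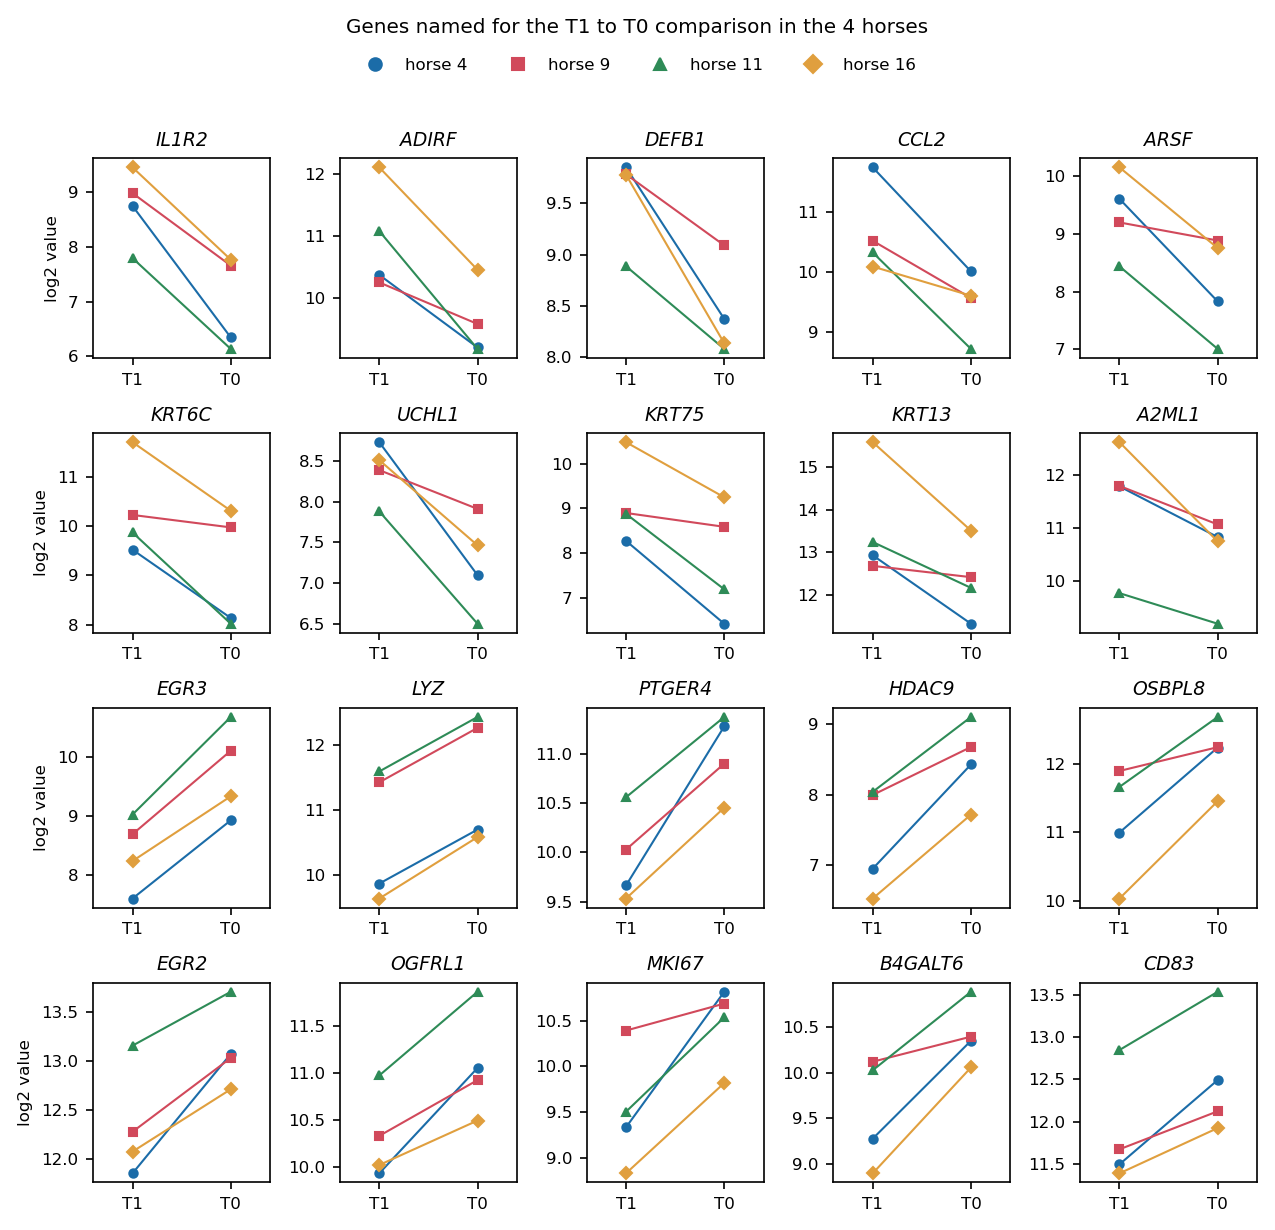
Deposited log2 value (vertical axes, each with its own range) at T1 and T0 (horizontal axis) of the 20 genes named by rule in the 4 horses, with a line joining the libraries of a horse. In the upper 2 rows every line falls towards T0 and in the lower 2 rows every line rises towards T0, since agreement of the 4 horses was part of the rule. Only IL1R2 and CCL2 had no overlap between times.

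Among genes lower at T1, EGR3 had the smallest p. EGR3 is a zinc-finger transcription factor that cells make within minutes of stimulation. It was at 7.61, 8.69, 9.02 and 8.24 at T1 in horses 4, 9, 11 and 16, against 8.93, 10.10, 10.67 and 9.33 at T0. The 4 horses differed in their EGR3 level, so the times overlapped, but the within-horse differences lay close together, at −1.32, −1.41, −1.64 and −1.09. The mean EGR3 difference was −1.36 ± 0.18 (interval −1.78 to −0.95, adjusted p = 0.464). EGR2, of the same family, was at 11.86, 12.28, 13.16 and 12.08 at T1, against 13.07, 13.03, 13.71 and 12.71 at T0, a difference of −0.79 ± 0.17.

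LYZ, the antibacterial enzyme lysozyme, had the smallest spread of differences between horses of the 20 genes plotted. It was at 9.87, 11.43, 11.60 and 9.64 at T1, against 10.70, 12.27, 12.44 and 10.59 at T0. The within-horse LYZ differences were −0.83, −0.84, −0.84 and −0.95, although LYZ in horses 9 and 11 was above that in horses 4 and 16 at both times. The mean was −0.86 ± 0.14 (interval −1.19 to −0.53, adjusted p = 0.618). PTGER4, the prostaglandin E2 receptor EP4, was at 9.67, 10.03, 10.56 and 9.53 at T1, against 11.28, 10.90, 11.37 and 10.45 at T0. PTGER4 differed by −1.05 ± 0.19, most in horse 4, and T1 of horse 11 was its single value above the lowest T0 value.

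Other genes named as lower were those of chromatin, membranes and activation. HDAC9, a class IIa histone deacetylase, was at 6.95, 7.997, 8.04 and 6.52 at T1, against 8.43, 8.68, 9.11 and 7.72 at T0, a difference of −1.11 ± 0.21. OSBPL8, a lipid carrier between the endoplasmic reticulum and the plasma membrane, differed by −1.01 ± 0.20, and B4GALT6, which makes lactosylceramide, by −0.84 ± 0.19. CD83, a surface glycoprotein of activated antigen-presenting cells, was at 11.50, 11.68, 12.85 and 11.39 at T1, against 12.49, 12.13, 13.53 and 11.93 at T0, a difference of −0.67 ± 0.16. MKI67, which codes the proliferation antigen Ki-67, differed by −0.95 ± 0.21, and OGFRL1, which resembles the opioid growth factor receptor, by −0.77 ± 0.17. Horse 9 had the smallest difference of the 4 horses for OSBPL8, B4GALT6, CD83 and MKI67. Each of these genes had an adjusted p of 0.618.

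Cytosolic ribosomal protein genes, which code the protein part of the translation machinery, had the largest share of members higher at T1 in every horse among the lists examined. Of 68 tested, 50 were higher in 4 of 4 horses, or 73.5% against 7.68% of all genes. None of the 68 was lower in 4 of 4, against 6.18% of all genes. None passed the test and none separated the T1 from the T0 libraries, since horses differed in level more than times did. Their median difference was 0.28, against 0.01 over all genes. The list mean differed by 0.32, 0.16, 0.30 and 0.31 in horses 4, 9, 11 and 16. RPS28, a small-subunit protein, was at 12.69, 12.81, 13.31 and 13.18 at T1, against 12.12, 12.34, 12.82 and 12.59 at T0, a difference of 0.53 (interval 0.21 to 0.86). RPS21, RPS29 and RPS12 differed by 0.47, 0.48 and 0.42. Ribosomal protein genes have many processed copies in mammalian genomes, and reads shared with such copies make single values uncertain.

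Nuclear genes of oxidative phosphorylation, the subunits of the respiratory chain and ATP synthase, behaved alike. Of 63 tested, 35 were higher at T1 in 4 of 4 horses, or 55.6% against 7.68% of all genes. None was lower in 4 of 4, against 6.18% of all genes. All T1 libraries lay above all T0 libraries for 9 of the 63, and for 0.847% of all genes. The median difference was 0.27, with list means of 0.35, 0.12, 0.34 and 0.25. COX7A1, a subunit of cytochrome c oxidase known from heart and skeletal muscle, was at 9.21, 8.78, 9.59 and 9.73 at T1, against 7.89, 8.13, 8.27 and 9.45 at T0, a difference of 0.89 (interval 0.36 to 1.43). UQCRQ of complex III, ATP5MC1 of the ATP synthase ring and COX4I1 differed by 0.52, 0.45 and 0.47. The 13 genes of mitochondrial DNA, which code other subunits of the same complexes, did not share a direction across horses. Their list mean differed by 1.43, 0.13, 1.03 and −1.33 in horses 4, 9, 11 and 16, and 0 of 13 were higher in every horse.

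**Figure D3:**
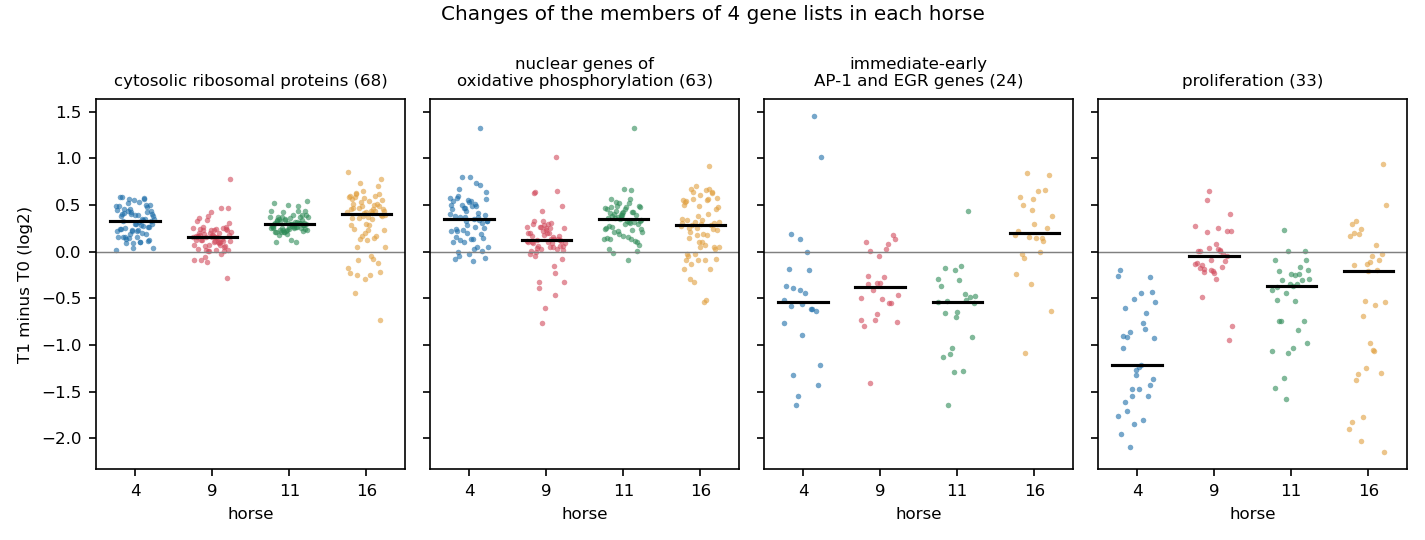
Difference T1 minus T0 on the log2 scale (vertical axis) of every tested gene of 4 lists in each horse (horizontal axis), with the number of genes in brackets and a black line at the median. Ribosomal protein and respiratory chain genes lay mostly above 0 in each of the 4 horses, immediate-early genes mostly below 0 in horses 4, 9 and 11, and proliferation genes mostly below 0 in horses 4, 11 and 16.

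Immediate-early genes of the AP-1, EGR and NR4A families, which are transcribed within minutes of a stimulus and need no new protein, were lower at T1 in 3 of the 4 horses. The list mean of 24 genes differed by −0.48, −0.38 and −0.62 in horses 4, 9 and 11, and by 0.19 in horse 16. In 4 of 4 horses 5 of the list were lower, EGR3, EGR2, NR4A3, KLF6 and ATF3, or 20.8% against 6.18% of all genes, and 0 were higher. NR4A3, an orphan nuclear receptor, was at 9.86, 9.98, 10.09 and 9.20 at T1, against 10.28, 10.65, 11.38 and 9.54 at T0, a difference of −0.68 (interval −1.14 to −0.22). KLF6, a zinc-finger factor, differed by −0.45. Without horse 16, 14 of the 24 were lower at T1 in each of the other 3 horses, as were 16.4% of all genes. FOS and EGR1, the best known of the group, were lower in 2 of 4 horses, with means of −0.35 and −0.16.

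The early targets of NF-kappaB and TNF numbered 22, of which 3, CD83, PTGS2 and TNF, were lower in 4 of 4 horses, or 13.6% against 6.18% of all genes. PTGS2, the inducible cyclooxygenase, was at 11.92, 12.44, 13.18 and 11.44 at T1, against 13.69, 12.53, 13.83 and 12.07 at T0. The difference came mostly from horse 4, at −1.77, with −0.09, −0.66 and −0.63 in horses 9, 11 and 16. TNF, the cytokine itself, differed by −1.58, −0.02, −0.59 and −0.43, so horse 9 was at the same level at both times. The list mean differed by −0.65, 0.01, −0.27 and −0.16.

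Proliferation genes had a median difference of −0.49, the lowest of all lists. A mean below 0 was found for 33 of 33, while 51.4% of all genes had a mean above 0. In 4 of 4 horses 8 of them were lower at T1, or 24.2% against 6.18% of all genes. Without horse 9 this was 22 of 33, against 19.3% of all genes, and without horse 16 it was 16, against 16.4%. The list mean differed by −1.12, −0.05, −0.52 and −0.56, so horse 9 was close to 0. MKI67 was at 9.34, 10.39, 9.51 and 8.84 at T1, against 10.81, 10.69, 10.54 and 9.82 at T0. TOP2A, the topoisomerase of dividing cells, was at 9.34, 10.64, 9.96 and 8.53 at T1, against 10.95, 10.78, 10.70 and 9.90 at T0. ASPM and KIF11, which act on the mitotic spindle, differed by −1.09 and −0.99. The macrophage list mean differed by −0.61, −0.15, −0.20 and 0.30 in the same horses. Its part in the proliferation values was not tested.

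Type I interferon-stimulated genes included 11 of 42 that were higher at T1 in 4 of 4 horses, or 26.2% against 7.68% of all genes. None of the 42 was lower in 4 of 4, against 6.18% of all genes. ISG15, the ubiquitin-like modifier, was at 12.58, 11.39, 12.51 and 12.29 at T1, against 11.15, 11.34, 11.11 and 10.99 at T0. The ranges did not overlap, but horse 9 differed by 0.05 and the other 3 by 1.31 to 1.43. MX1, a GTPase that blocks influenza viruses, was at 13.58, 13.28, 13.47 and 13.02 at T1, against 12.88, 12.74, 12.94 and 12.54 at T0. MX1 thus differed by a like amount in all 4 horses, 0.56 on average (interval 0.23 to 0.89), and OASL by 0.51 (interval 0.14 to 0.87). The median over the list was 0.18. Of genes induced by interferon gamma, 1 of 13 was higher in 4 of 4 horses, a share of 7.69% beside 7.68% of all genes.

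Antigen presentation genes were higher in part. In the MHC class II list 7 of 17 were higher at T1 in 4 of 4 horses, or 41.2% against 7.68% of all genes. Lower in 4 of 4 was 1 of the list, the costimulatory ligand CD80, or 5.88% against 6.18% of all genes. DQB, a class II beta chain, was higher without overlap, by 0.50 on average. A gene annotated DRB (ENSECAG00000020358), another beta chain, was at 11.05, 10.53, 11.31 and 13.19 at T1, against 10.23, 10.21, 10.92 and 12.35 at T0, a difference of 0.59. Horse 16 was far above the other 3 at both times for this DRB gene, and alleles and near-identical copies make MHC values uncertain. CIITA, the class II transactivator, differed by 0.03. In the class I list, 4 of 15 were higher in 4 of 4 horses (26.7%), all subunits of the immunoproteasome or its PA28 activator. PSME2, an activator subunit, was at 12.43, 12.12, 12.46 and 12.53 at T1, against 11.76, 11.92, 11.92 and 11.99 at T0, higher without overlap.

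Of 17 chemokine genes, 3 were higher at T1 in 4 of 4 horses, namely CCL2, CCL17 and CCL14, or 17.6% against 7.68% of all genes. CCL17, which attracts Th2 cells through CCR4, was at 7.07, 6.83, 5.81 and 4.75 at T1, against 5.41, 5.59, 5.31 and 4.18 at T0. CCL17 differed by 0.99 (interval 0.36 to 1.62), most in horses 4 and 9. In the complement list 5 of 12 were higher in 4 of 4 horses, or 41.7% against 7.68% of all genes. C5 alone was lower in 4 of 4, or 8.33% of the list against 6.18% of all genes. The complement median was 0.11. CFB, factor B of the alternative pathway, differed by 1.57, 0.05, 1.11 and 1.12. C1S, a protease of the classical pathway, differed by 0.67, 0.62, 0.56 and 0.78, a like amount in each horse. In the matrix list 7 of 22 were higher in 4 of 4 horses, or 31.8% against 7.68% of all genes, and the median was 0.23. They included PCOLCE2, which enhances procollagen processing, and TIMP1, a metalloproteinase inhibitor, which differed by 1.10 and 0.70. ARG2, mitochondrial arginase, was higher without overlap, at 11.03, 11.22, 11.50 and 10.97 at T1 against 10.70, 10.85, 10.60 and 10.33 at T0.

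Among cellular stress lists, antioxidant genes under NRF2 control had 11 of 32 higher at T1 in 4 of 4 horses, or 34.4% against 7.68% of all genes. Catalase (CAT) alone was lower in 4 of 4, or 3.12% of the list against 6.18% of all genes. GPX2, an epithelial glutathione peroxidase, was at 14.53, 13.95, 13.69 and 14.97 at T1, against 13.04, 13.82, 12.19 and 14.16 at T0. GSTP1, a glutathione transferase, differed by 0.75 and was lowest in horse 9, at 0.05, as were the ciliated and neutrophil markers. Heat shock chaperones had 9 of 25 higher in 4 of 4 horses, or 36.0%, against the same 7.68%. HSPA6, a strictly inducible HSP70, was at 14.66, 15.72, 15.28 and 14.54 at T1, against 13.94, 14.79, 14.95 and 14.19 at T0, with the largest difference in horse 9. HSPA1A, DNAJA4 and BAG3, of the same response, differed by 0.56, 0.57 and 0.50. In heme breakdown and iron handling 0 of 20 were higher in 4 of 4 horses and 1 was lower (5% against 6.18% of all genes), and the median was 0.02.

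Secretory epithelial genes were the one epithelial list in which every horse had a mean above 0, at 0.78, 0.05, 0.59 and 1.10 in horses 4, 9, 11 and 16. Of 10 tested, 5 were higher at T1 in 4 of 4 horses, SLPI, PIGR, AGR2, TFF3 and SCGB3A2, beside 7.68% of all genes, while the mucin MUC5AC differed by −0.75. SLPI, the secreted inhibitor of neutrophil elastase, was at 9.56, 9.05, 9.56 and 9.49 at T1, against 8.58, 8.34, 9.07 and 8.55 at T0. The SLPI ranges overlapped by T1 of horse 9 and T0 of horse 11 alone. PIGR, which carries IgA across epithelium, differed by 1.73, 0.04, 0.93 and 1.06. Among 12 neutrophil markers only LTF, lactoferrin, was higher in 4 of 4 horses (8.33% of the list), by 1.79, 0.65, 0.43 and 1.43.

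The 4 horses did not move as a single group. Over 14752 genes the T1 minus T0 differences of horses 4 and 11 had a Pearson r of 0.68, and those of horses 9 and 16 had an r of −0.47. The other 4 pairs of horses lay between −0.15 and 0.23. These correlations are across genes of bulk libraries that share cell composition, and genes are not independent replicates. Horses 9 and 16 had a difference of the same sign for 29.9% of genes and horses 4 and 11 for 75.6%. The standard deviation of the differences over genes was 0.64, 0.38, 0.56 and 0.67 in horses 4, 9, 11 and 16, smallest in horse 9. Without horse 9, limma again called 0 genes, with 3011 at an unadjusted p below 0.05 and a smallest adjusted p of 0.092. Without horse 11 that number was 255, without horse 4 it was 318, and without horse 16 it was 1793.

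The other 12 horses, 9 of them EIPH-affected and not High_N and 3 High_N, were used to ask whether the difference was particular to the 4. The 4 horses also differed from them in marker levels at T1. Ciliated markers had a median of 11.42 in the 4 (10.67 to 11.76), against 9.55 in the 9 and 9.64 in the 3, and macrophage markers had a median of 13.31, against 14.02 and 13.87. The part of these levels in the comparison was not tested. No gene passed the test of the difference. Against all 12, limma on the within-horse differences called 0% of 14752 genes (smallest adjusted p = 0.9999), with 89 genes at an unadjusted p below 0.05. Against the 9 it also called 0% (smallest adjusted p = 0.999), with 318 at an unadjusted p below 0.05. The mean differences of the 4 and of the 12 had a Pearson r of 0.43 over genes. Of the 249 genes at least 1.5-fold higher in the 4 horses, 81.1% had a mean above 0 in the 12, against 44.6% of all genes. Of the 168 lower genes, 95.2% had a mean below 0 in the 12, against 55.4% of all genes. The higher genes had a median difference of 0.79 in the 4 and 0.23 in the 12, and the lower genes −0.69 in the 4 and −0.38 in the 12. These genes were chosen by their values in the 4 horses.

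**Figure D4:**
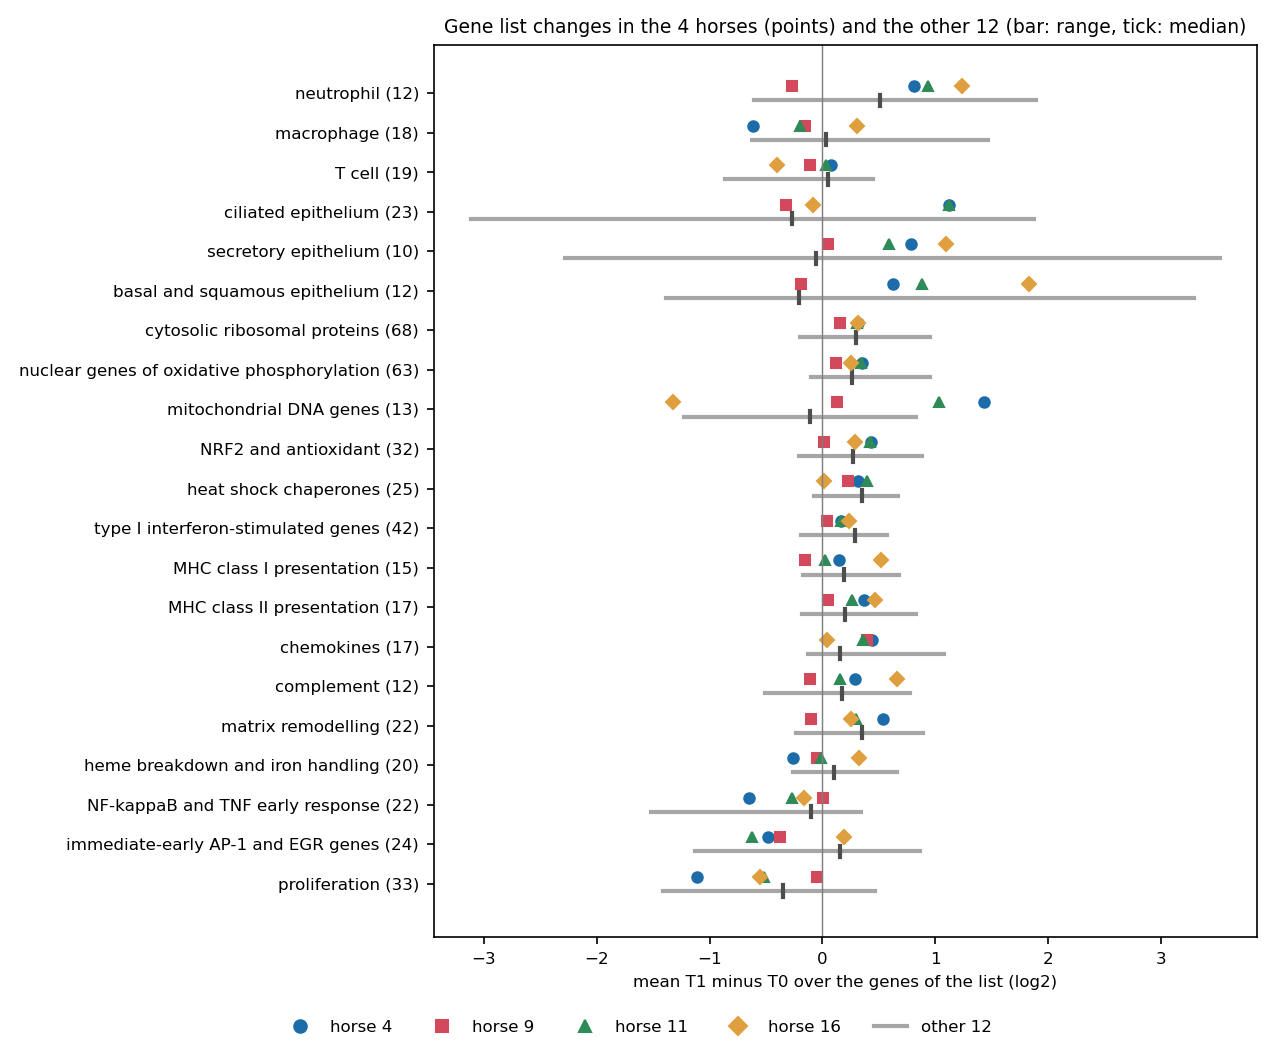
Mean T1 minus T0 difference (horizontal axis, log2) over the genes of 21 lists (vertical axis, number of genes in brackets), with a coloured point for each of the 4 horses and a grey bar from the lowest to the highest of the other 12, with a tick at their median. Ribosomal protein and respiratory chain lists were above 0 in all 4 horses and lay near the median of the other 12, while immediate-early genes lay below that median in horses 4, 9 and 11.

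The list mean of the ribosomal protein genes was above 0 in 4 of the 4 horses and in 9 of the 12, whose median was 0.30. That of the respiratory chain genes was above 0 in 4 of the 4 and in 10 of the 12 (median 0.26). Proliferation genes were below 0 in 4 of the 4 and above 0 in 3 of the 12 (median −0.35). Secretory markers were above 0 in 4 of the 4 and ranged from −2.28 to 3.52 in the 12 (median −0.06). Immediate-early genes were below 0 in 3 of the 4 horses and above 0 in 9 of the 12 (median 0.15). IL1R2 was higher at T1 in 4 of the 4 and in 7 of the 12, with means of 1.77 and 0.41, and the difference between the 4 and the 12 was 1.36 (interval −0.29 to 3.02). For EGR3 the means were −1.36 in the 4 and −0.53 in the 12, where 4 of 12 were higher at T1, and the difference was −0.83 (interval −1.99 to 0.33). LYZ differed by −0.86 in the 4 and −0.62 in the 12 and CCL2 by 1.20 in the 4 and 1.04 in the 12, and the intervals of the difference from the 4 were −1.38 to 0.89 and −1.26 to 1.58. Each of these intervals holds 0.

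Among genes with the smallest p for a difference from the 12, SPAG5, a protein of the mitotic spindle, differed by 0.64, 0.01, 0.43 and 0.40 in horses 4, 9, 11 and 16, against a mean of −0.29 ± 0.31 (SD, n = 12). The difference was 0.66 (interval 0.25 to 1.07, adjusted p = 0.9999). QPCT, glutaminyl cyclase, differed by 0.39, 0.48, 0.13 and 0.73, against −0.23 ± 0.46 in the 12. KIF9, a kinesin of motile cilia, differed by 1.33, −0.15, 0.62 and 0.56, against −0.35 ± 0.74. ODF2, a protein of centrioles and sperm tails, differed by 0.58, −0.20, 0.15 and 0.35, against −0.37 ± 0.42. The ciliated marker mean had the same sign as both genes in horses 4, 9 and 11 but the other sign in horse 16, at −0.08. The part of ciliated markers in these values was not tested. EZR, the membrane linker ezrin, differed by 0.95, −0.07, 0.68 and 0.28, against −0.15 ± 0.42.

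In the other direction, IER5, an immediate-early gene, differed by −0.61, −0.55, −0.51 and 0.11 in the 4 horses, against 0.37 ± 0.51 in the 12, where 10 of 12 were higher at T1. The difference was −0.76 (interval −1.35 to −0.18) and −0.79 against the 9 EIPH-affected horses (interval −1.22 to −0.36). INSIG1, which holds back cholesterol synthesis, differed by −0.61, −0.11, −0.33 and −0.53, against 0.28 ± 0.47. BTG2, an antiproliferative immediate-early gene, differed by −0.64, 0.18, −0.48 and 0.25, against 0.49 ± 0.39 with 11 of 12 higher. PTGER4 averaged −1.05 in the 4 and −0.35 in the 12, a difference of −0.70 (interval −1.32 to −0.08). TRIM65, a ubiquitin ligase, differed by −0.15, −0.34, −0.02 and −0.18, against 0.28 ± 0.24 with 11 of 12 higher. None passed the adjustment over all genes.

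**Figure D5:**
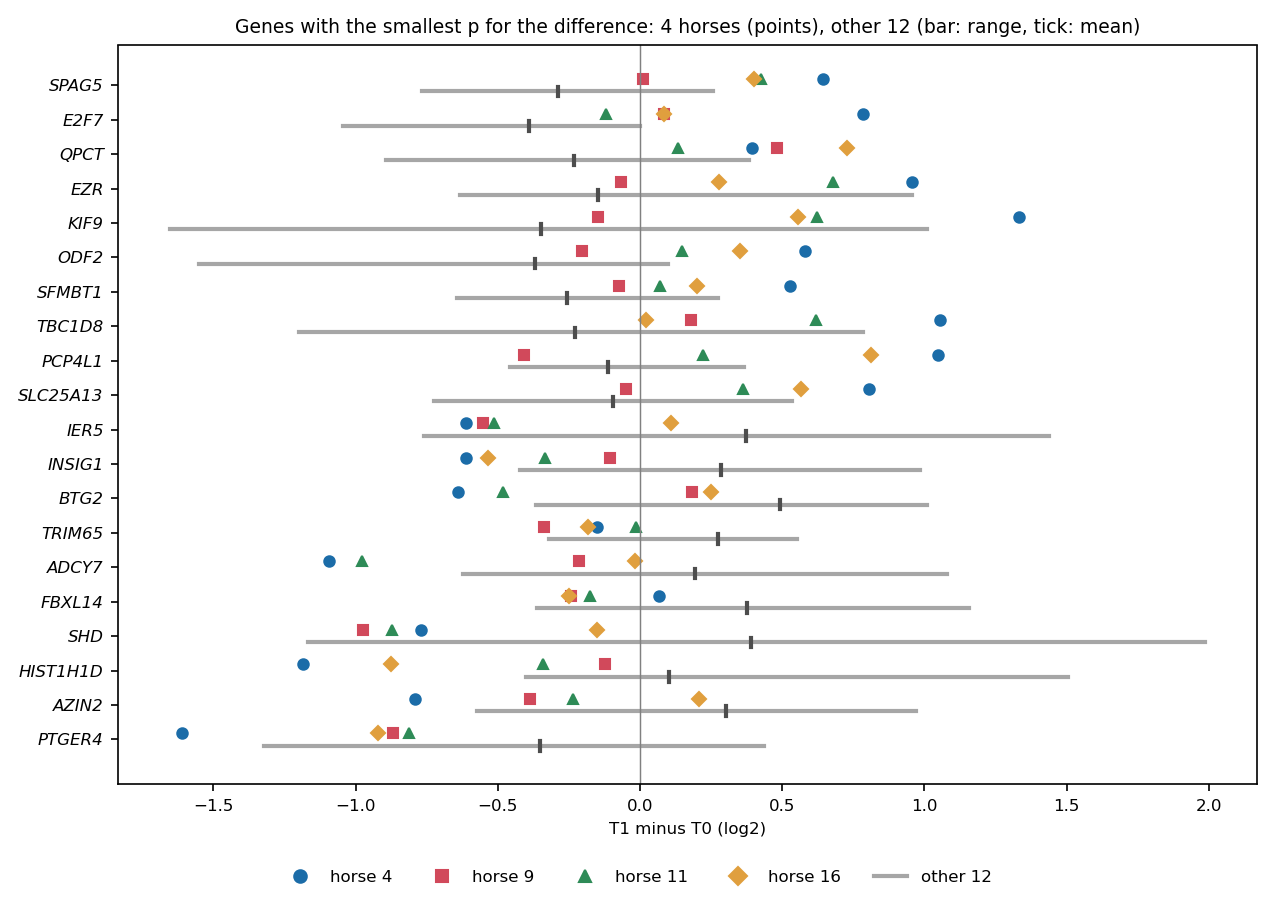
Difference T1 minus T0 (horizontal axis, log2) of the 20 genes with the smallest limma p for a difference between the 4 horses (coloured points) and the other 12 (grey bar from lowest to highest, tick at the mean). The points of the upper 10 genes lie mostly right of the ticks and those of the lower 10 mostly left, by which they were chosen, and the bars reach over most of the points.

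Genes that the study names for RNA in training were chosen on all 16 horses, these 4 included, and so are no independent evidence. Of 82 tested here, 30 were higher at T1 in 4 of 4 horses, or 36.6% against 7.68% of all genes, and 5 lower, or 6.10% against 6.18%. The list mixes genes named as higher and as lower in training, so no mean over it is read. For the same reason neither share measures how often these horses went in the direction the study names. The 5 were LYZ, TNF, TAGAP and the 2 genes annotated IL7R. IL7R (ENSECAG00000033707), the interleukin 7 receptor of T cells, was at 8.39, 7.53, 8.73 and 7.99 at T1, against 8.97, 8.49, 9.20 and 8.29 at T0. IL7R (ENSECAG00000010973) differed by −0.37, mostly in horse 4. MMP9, the neutrophil and macrophage gelatinase, differed by 1.98, −0.23, 1.35 and 0.85. The neutrophil marker mean had the same sign in each horse, but MMP9 is a member of that list, so this is partly built in.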

How the data were processed

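Tracheal wash cells of 16 horses were sampled at T1 and T0, and ribosomal RNA was depleted before directional RNA libraries were made. Per the methods and processing notes, the authors trimmed reads with cutadapt, quantified them with kallisto 0.46.0.1 against EquCab3.0 transcripts and analysed them with DESeq2. The deposited table holds log2 values of 21357 genes, made by the authors with a transformation that is not given in the sources used here, although the table is titled as counts. Depth per library is therefore unknown, and no counting error was computed. 1899 genes at a single value in every library were left out, as were 4706 genes with a mean log2 value below 3 over the 8 libraries, leaving 14752.

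T1 and T0 were compared with limma 3.58.1 in R 4.3.3 (empirical Bayes with a trend, horse as block, because both libraries came from the same animal). Benjamini-Hochberg adjustment was over all genes tested, at 0.05. Differences from other horses were tested with limma on the 16 or 13 within-horse differences. Named genes were the 10 in each direction with the smallest p among genes with a symbol, a mean of at least 7 and a shared direction in 4 of 4 horses, up to 4 for each list, the genes the study names for RNA, and the 10 in each direction for each difference test. FOS, EGR1, C5, CIITA, CAT, CD80, MUC5AC, SCGB3A2, ATF3, CCL14, KIF11, CD163, C1QC and MRC1 were added after their values were seen. The horses and the gene lists were chosen with earlier results of these data known. Alternatives covered the filter, the scaling, the block, the trend, robust fitting, all 32 libraries, marker covariates and each horse left out. Scripts were tested on simulated data. The figures were drawn with matplotlib 3.10.9. No sequences were printed.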

Additional observations from a re-analysis of the deposited data

Results flagged for a closer look

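Dixon's ratio was computed for the 4 within-horse differences of 57 items, namely 37 list means and the 20 named genes, and 7 passed its 95% critical value. Chance alone gives about 1 in 20. For LYZ, horse 16 differed by −0.95 and the other 3 by −0.84 to −0.83. For PTGER4, horse 4 differed by −1.61 and the others by −0.92 to −0.81. The ribosomal protein list mean was 0.16 in horse 9 and 0.30 to 0.32 in the others, and the mean of the genes the study names for RNA was 0.037 in horse 9 and 0.27 to 0.31 in the others. That last list mixes genes named as higher and as lower. Horse 16 stood apart in 3 list means. Its lysosome mean was 0.41 against −0.13 to −0.10 in the others, its dendritic cell mean was −0.16 against 0.12 to 0.14, and its T cell activation mean was −0.56 against 0.10 to 0.19. No named gene or list had all 4 horses moving one way and all 12 others the opposite way.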

How the results depend on the processing

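No gene was called in any of the 13 other fits between T1 and T0, in any of the 7 other fits against the 12 horses, or in any of the 6 other fits against the 9. Genes at an unadjusted p below 0.05, 1110 with the horse as block, numbered 391 with no block, 526 in all 32 libraries, 200 with marker covariates, and 255 to 3011 with a horse left out. The pairing changed no call. Genes higher in every horse by at least 1.5-fold numbered 124 of the genes with a mean of at least 7. Leaving out a horse, with agreement then asked of fewer horses, gave 184 to 1496 higher and 160 to 937 lower such genes. It gave 228 to 841 genes all above and 204 to 1188 all below, and the cause was not tested. Shifting libraries to one median left 53 genes all below. With a horse left out, 5 to 14 of 24 immediate-early genes were lower in every remaining horse. For proliferation genes this was 8 to 22 of 33, and for all genes 7.16% to 19.3%. With marker covariates ADIRF turned to −0.20, ARSF to −0.093, KRT6C to −0.24, KRT13 to −0.15 and A2ML1 to −0.071, KRT75 was at 0.13 and UCHL1 at 0.46, and the cause was not tested. Apart from the 5 that turned, the 15 named genes kept their sign in all 13 alternatives. Of 185 list medians under alternatives, 16 had the other sign, all of them lists with a median between −0.11 and 0.29.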

Other observations

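Gene families outside the fixed lists were read from the symbols after the values had been seen, so their counts are a description. Of all genes, 7.68% were higher and 6.18% lower at T1 in 4 of 4 horses, and 0.847% lay all above and 0.671% all below T0. Proteasome subunits, which form the chamber that degrades ubiquitin-tagged proteins, were higher at T1 in 4 of 4 horses in 17 of 34 cases, and for 8 the T1 libraries lay all above the T0 libraries. The family mean differed by 0.28, 0.11, 0.29 and 0.20 in horses 4, 9, 11 and 16, and was above 0 in 11 of the other 12. Mitochondrial ribosomal proteins, which translate the genes of mitochondrial DNA, were higher in 22 of 69 cases, with 7 lacking overlap. Their family mean differed by 0.27, −0.05, 0.27 and 0.17, and was above 0 in 9 of the other 12. In the opposite direction, 9 of 24 histone lysine methyltransferases and demethylases were lower at T1 in 4 of 4 horses and 0 were higher, and 3 lay all below T0. That family differed by −0.12, −0.12, −0.46 and −0.30, and was above 0 in 3 of the other 12. Zinc finger genes named ZNF were higher in 4 of 4 horses in 10 of 265 cases and lower in 10.

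The lists not described so far are given with the share of their genes, beside 7.68% higher and 6.18% lower in 4 of 4 horses over all genes. Acute phase and S100 genes had 2 of 16 higher at T1 in 4 of 4 horses (12.5%). Their list means were 0.77, −0.06, 0.71 and 1.11 in horses 4, 9, 11 and 16. Glycolysis had 4 of 22 higher (18.2%). The hypoxia list had 4 of 18 higher (22.2%) and 3 lower (16.7%), and ADM, the vasodilator adrenomedullin, differed by 0.16, 0.89, 0.62 and 0.72. The integrated stress response had 2 of 22 higher (9.09%) and 1 lower (4.55%). Cholesterol synthesis had 1 of 24 higher and 1 lower (4.17% each), and the lysosome list 2 of 31 higher (6.45%). Innate receptors had 1 of 25 higher and 1 lower (4% each). Apoptosis regulators had 1 of 25 lower (4%) and T cell activation 1 of 21 lower (4.76%). Among cell types, the T cell list had 1 of 19 higher (5.26%) and 3 lower (15.8%), and macrophage markers 2 of 18 lower (11.1%). Cytotoxic lymphocyte markers had 1 of 14 lower (7.14%), and dendritic cell markers 1 of 9 higher and 1 lower (11.1% each). Erythroid markers had 1 of 5 lower (20%). B and plasma cell (10 genes), mast cell (6), eosinophil (1) and ciliated (23) markers had 0 with a shared direction in the 4 horses.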
